A study of Mus musculus with 4 samples.

Results

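The mitochondrial protein import machinery was followed as 38 of the 22396 named genes in the table. They were picked by a rule on gene symbols: every gene named Timm or Tomm plus digits or letters, and Hspd1, Hspe1, Pam16, Grpel1, Grpel2, Samm50, Mtx1, Mtx2, Pmpca, Pmpcb, Lonp1 and Clpp. Timmdc1 entered by its name, although it is known as an assembly factor of respiratory complex I. Low-input ribosome profiling, which counts the messenger RNA fragments that ribosomes shield from nuclease, was done on mouse testis cells positive for THY1. The cells came from Ddx20 knockout mice (2 samples) and from littermate controls (2 samples). Neither the labels nor the design text used here state age, strain, the cells in which the gene was deleted or any pooling of animals. Whether the 2 samples of a group are separate animals is likewise not stated, so p-values reflect only how these samples spread. DDX20 is a DEAD-box helicase of the SMN complex, and the comparison asks how its loss changes ribosome occupancy. No RNA sequencing was analysed here, so less translation of a gene, less of its transcript and fewer cells that make it cannot be told apart.

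The table gives a mean over the libraries and 1 comparison per gene. Whole reads of 4 libraries, named A to D here, were recovered from the means: 941014, 789570, 282722 and 221439 reads. Libraries A and B lie on the negative side of the fold changes and libraries C and D on the positive side, and no library could be tied to a genotype. "Fell" and "lower" therefore mean lower in C and D with an adjusted p under 0.05 by the authors' deposited table. Ddx20, the targeted gene, had 167 and 173 normalised reads (reads divided by the library's size factor) in A and B and 42.6 and 50.8 in C and D. The reads of A and B agreed within sampling noise: a chi-square test over 10424 genes gave 0.982 per degree of freedom (p = 0.905), and 1 over 32 import genes gave 0.787 (p = 0.795). The pair was therefore also counted as 1 sample in an alternative. Between C and D the chi-square test gave 1.08 over 12228 genes (p = 3.79e-10) and 1.34 over 24 import genes (p = 0.125). Libraries C and D stand apart in another way: 0.806% and 0.899% of their reads lay on odorant and vomeronasal receptor genes, against 0.00457% and 0.00469% in A and B. Thy1, the gene of the sorting marker, had 10.5, 10.6, 1.33 and 5.08 normalised reads in A to D and was not called (adjusted p = 0.156, authors' deposited table).

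Nearly all mitochondrial proteins are made on cytosolic ribosomes and imported. The TOM complex of the outer membrane receives them, SAM inserts barrel-shaped proteins there, small Tim chaperones carry hydrophobic precursors across the space between the membranes, and TIM22 and TIM23 insert them into the inner membrane or pass them to the matrix. In the matrix a motor pulls the chain in, the peptidase MPP cuts off the targeting signal, a chaperonin folds the protein, and proteases such as Lonp1 and Clpp degrade what fails.

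A short sequence stood in the promoters of 18 of these genes, and stretches that hold it are printed here beside the fold changes of their genes. RefSeq promoter windows (build GRCm38.p6, 250 bases before to 50 after a start) were found for 34 of the 38 genes. The letters CCGGAAG, the core bound by ETS factors such as GABP, known regulators of nuclear genes for mitochondrial proteins, were searched on both strands. They stood in 18 of 34 import genes (52.9%), against 2264 of 17491 protein-coding genes (12.9%) and 828 of 3514 tested genes in the highest of 4 equal classes of mean level (23.6%). Among genes that fell 11 of 18 held them, and among the other import genes with a window 7 of 16. In 13 genes a match lay within the 100 bases before a start. The 6 such genes whose stretch touches no annotated gene span, their own included, are shown, 5′ to 3′ on the strand of the gene, over the 100 bases before the start, with matches in capitals. The first 4 fell, by -1.31 (Mtx1), -1.95 (Mtx2), -1.07 (Pmpcb) and -1.31 (Tomm70a) on the log2 scale in the authors' deposited table, and the last 2, Timm10 and Tomm22, did not pass. The stretches lie at chr3:89213908-89214007 (minus), chr2:74825712-74825811 (plus), chr5:21737060-21737159 (plus), chr16:57121614-57121713 (plus), chr2:84826921-84827020 (plus) and chr15:79670768-79670867 (plus).
Mtx1: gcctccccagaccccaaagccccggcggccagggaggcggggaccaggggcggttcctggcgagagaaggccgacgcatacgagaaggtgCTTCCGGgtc
Mtx2: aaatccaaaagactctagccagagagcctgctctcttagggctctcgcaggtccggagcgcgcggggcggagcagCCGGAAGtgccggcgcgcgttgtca
Pmpcb: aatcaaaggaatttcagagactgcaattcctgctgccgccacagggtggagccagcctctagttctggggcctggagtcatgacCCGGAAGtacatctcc
Tomm70a: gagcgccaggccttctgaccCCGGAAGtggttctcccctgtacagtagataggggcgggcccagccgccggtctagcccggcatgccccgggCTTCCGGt
Timm10: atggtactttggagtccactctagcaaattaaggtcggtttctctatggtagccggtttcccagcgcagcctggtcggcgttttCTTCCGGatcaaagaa
Tomm22: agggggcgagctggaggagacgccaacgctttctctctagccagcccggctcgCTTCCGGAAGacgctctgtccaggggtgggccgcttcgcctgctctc

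In Tomm22 the 2 matches overlap on opposite strands, and Tomm70a holds 2 separate matches. Other motifs were rarer. The NRF1 core (GCGCA, any base, GCGC) stood in 4 of 34 import genes (11.8%), against 7.17% of all and 14.8% of the highest class, and the YY1 core GATGGCGG in 3 (8.82%), against 2.62% and 5.72%. A heat shock element (TTC, GAA and TTC, each set apart by 2 bases) was found in Hspd1, Hspe1 and Timm9, 3 of 34 (8.82%), against 0.595% and 0.626%. Hspd1 and Hspe1, the chaperonin and its lid, run in opposite directions on chromosome 1. The same site lies in a promoter window of each, and another Hspd1 window held no such element. Their spans overlap by 96 bases, and the site lies outside that overlap, within the span of Hspd1. The site is shown on the strand of Hspe1 at chr1:55088054-55088081, with the 2 overlapping elements in capitals. The capitals also hold CTTCCGG, which reads CCGGAAG on the other strand.
Hspe1 and Hspd1: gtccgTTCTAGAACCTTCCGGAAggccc
These matches describe letters in the windows, and the median GC content of the windows was 60% for import genes and 56.3% for all.

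Most import genes that could be measured were lower in libraries C and D, and none was higher. Of the 33 with an adjusted p in the authors' deposited table, 19 fell, 0 rose and 14 did not pass. Among all 17347 tested genes 18.8% fell and 26.9% rose. The median log2 fold change in the authors' deposited table was -1.09 for the 33 and 0.38 for all tested genes. The 38 genes together took 0.296% and 0.290% of the reads of A and B (95% Wilson intervals 0.285 to 0.307 and 0.279 to 0.302) and 0.157% and 0.154% of C and D (0.143 to 0.172 and 0.139 to 0.171). These intervals cover counting error only. As normalised reads the sums were 1618 and 1621 against 590 and 577, so A and B lay 2.77-fold above C and D with the size factors and 1.89-fold above with library totals.

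When tested genes were cut into 4 equal classes by mean, all 15 import genes of the highest class fell, where 61.2% of all genes fell, and their median was -1.51 against -1.05 for that class (authors' deposited table). In the next class 3 of 9 fell (13.3% of all genes there), with medians of -0.69 and 0.16 in the authors' deposited table. In the class below 1 of 7 fell, Timm9 (0.623% of all genes there), and in the lowest 0 of 2 (0% of all genes there). By normalised reads, both of C and D lay below both of A and B in 28 of 33 tested import genes, against 30.8% of tested genes, and above in 1 (53.9%). In the highest class they lay below in all 15 import genes, against 74.5% of tested genes there. The 5 genes with no adjusted p, Timm23, Tomm20l, Pam16, Timm10b and Timm8a1, had only 4, 2, 2, 4 and 1 reads in all.

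Limma, run on the recovered reads, called 24 of 32 import genes with at least 10 reads lower and 0 higher with the authors' size factors, against 28.8% and 40.9% of all genes. All 19 genes above were among the 24. With TMM it called 25 lower (30.9% of all genes lower, 38.3% higher), with upper-quartile factors 23 (27.7% and 41.4%) and with median-ratio factors 24 (28.8% and 40.9%). Library totals, which shift all genes up, left 17 lower and 1 higher (18.9% and 50.2%). With A and B summed 23 were lower (27.3% and 39.5%), and with a minimum of 50 reads 23 of 27 (51.7% and 19.9%). Without a read minimum 24 of 38 were lower and 3, each with 1 to 4 reads, higher (20.2% and 54.9%). Leaving out A gave 21 lower (26.8% and 36.1%), B 22 (27.2% and 36.7%), C 17 and 1 higher (24.7% and 28.1%), and D 19 (26.7% and 29.5%).

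**Figure D1:**
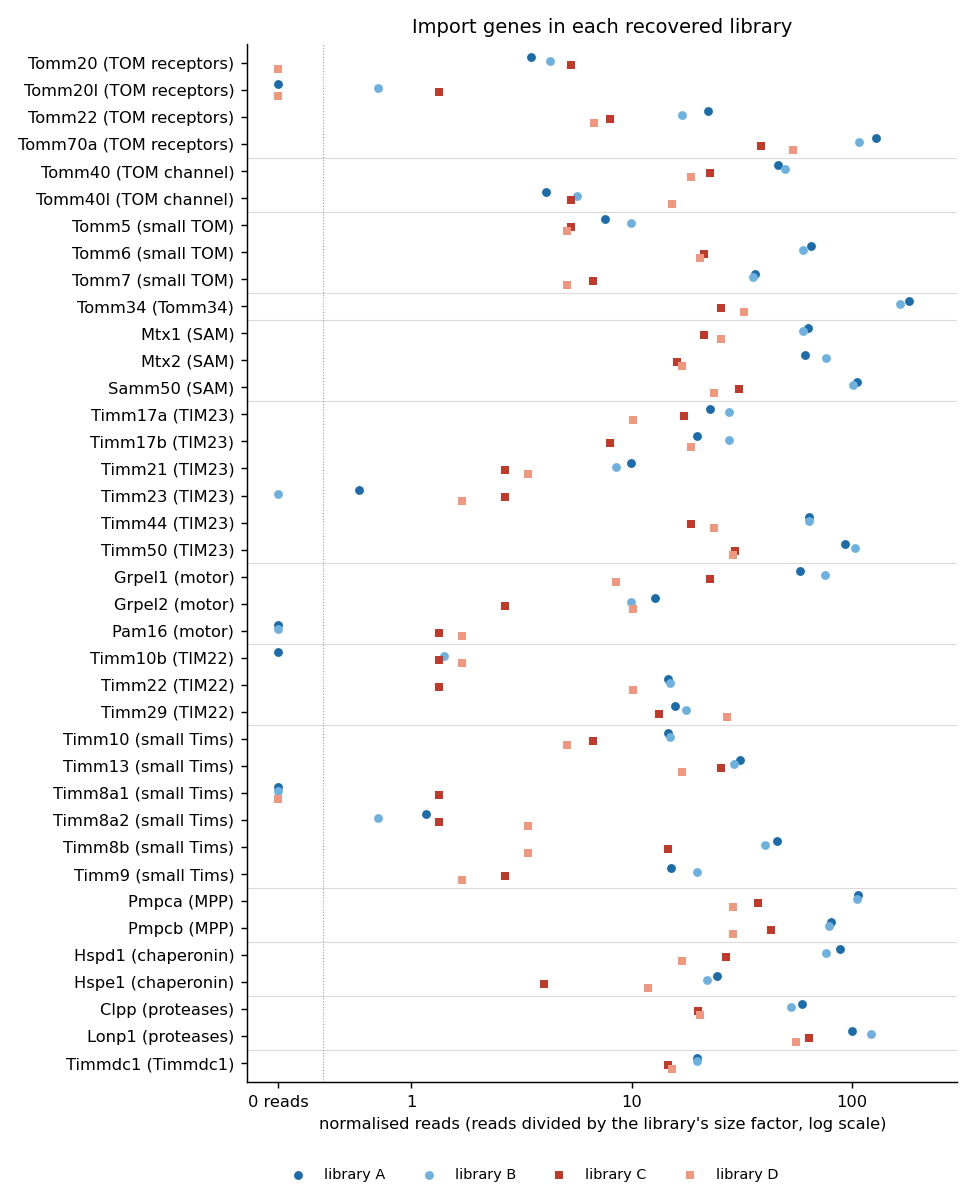
Normalised reads (reads divided by the size factor, log scale) of all 38 import genes in each recovered library, grouped by import unit; points left of the dotted line had no read. In 28 of the 33 tested genes both C and D (squares) lie left of both A and B (circles).

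**Figure D2:**
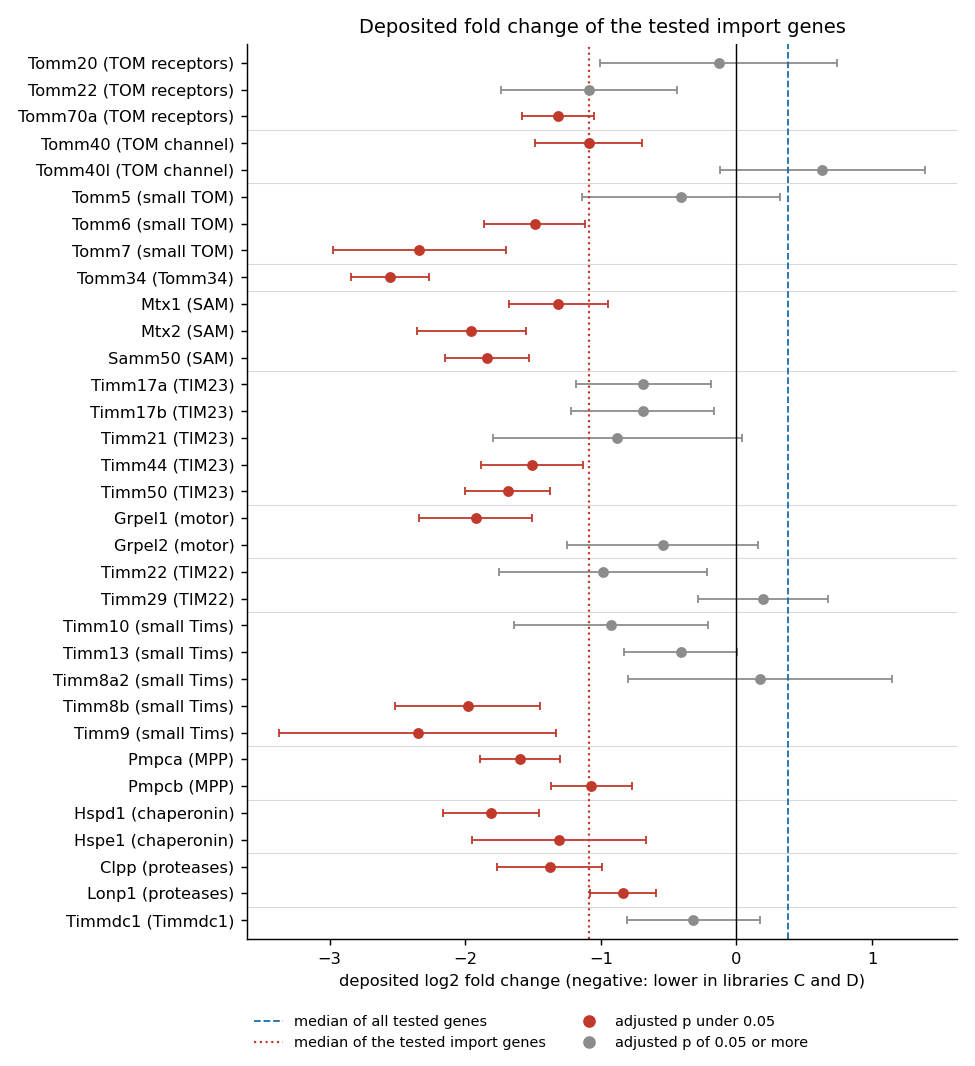
Log2 fold change in the authors' deposited table of the 33 tested import genes, with its standard error. The 19 genes with an adjusted p under 0.05 (red) all lie below 0, and the median of the 33 (-1.09) lies below that of all tested genes (0.38).

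**Figure D3:**
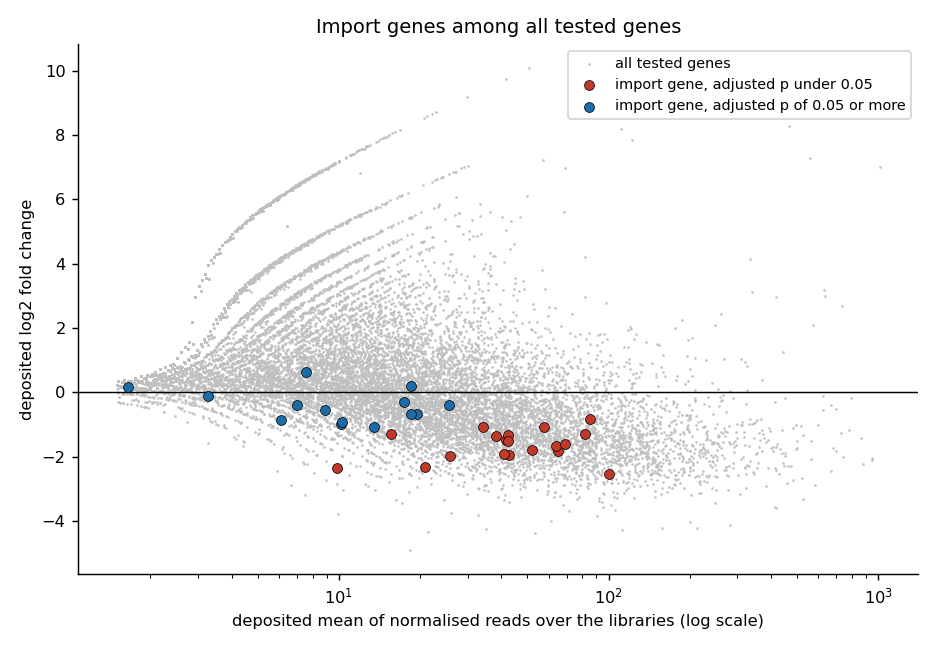
Log2 fold change against mean level (log scale) in the authors' deposited table, for all tested genes (grey) and import genes (red, adjusted p under 0.05; blue, the other tested ones). The 15 import genes with the highest means all fell.

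The receptors and channel of the outer membrane differed in how much was read. Tomm70a, the receptor that takes carrier precursors from cytosolic chaperones, had 128, 107, 38.7 and 54.1 normalised reads in A to D. Its log2 fold change in the authors' deposited table was -1.31 (standard error 0.265, adjusted p = 3.12e-06). Both libraries of one side were far from both of the other. Tomm22, the central receptor, had 38, 24, 6 and 4 reads, without overlap once normalised, but missed the threshold (-1.09, adjusted p = 0.0810, authors' deposited table). With limma on the recovered reads Tomm22 passed (-1.28, adjusted p = 0.0125), but not with library totals (-0.73, adjusted p = 0.158). The call was also lost without library A (-1.09), C (-1.39) or D (-1.21), and kept without B (-1.46). The presequence receptor Tomm20 rested on 6, 6, 4 and 0 reads, and its paralogue Tomm20l on 0, 1, 1 and 0.

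Tomm40, the barrel through which precursors cross, fell. Its normalised reads were 46.0, 49.5, 22.7 and 18.6, with a log2 fold change of -1.09 (authors' deposited table, standard error 0.395, adjusted p = 0.00959). Its paralogue Tomm40l had a positive value that missed the threshold (0.63, adjusted p = 0.326, authors' deposited table), with 7, 8, 4 and 9 reads. The difference between the paralogues was not tested. Tomm40 did not pass in limma with library totals (adjusted p = 0.0686), where Tomm40l passed as higher (1.43, adjusted p = 0.0182), as it did without library C (1.68, adjusted p = 0.0181).

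Of 3 small subunits that stabilise the TOM complex, 2 fell. Tomm6 lay in the highest class of mean level, where 61.2% of all tested genes fell. Tomm7 lay in the next class (13.3%) and Tomm5 in the class below (0.623%). Tomm7 had 36.1, 35.4, 6.66 and 5.08 normalised reads and a log2 fold change of -2.34 (adjusted p = 3.46e-04) in the authors' deposited table. Tomm6 had 65.2, 60.1, 21.3 and 20.3 normalised reads (-1.49, adjusted p = 1.81e-04, authors' deposited table). Neither gene overlapped between the sides. C and D lay below both A and B in 30.8% of all tested genes and in 74.5% of the highest class. Tomm5 rested on 13, 14, 4 and 3 reads and did not pass (-0.41, authors' deposited table). Counting by strand is not stated, and the span of Tomm6 overlaps Frs3 by 780 bases and the antisense gene Tomm6os by 777.

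Tomm34 had the lowest log2 fold change of the 33 tested genes in the authors' deposited table, while by the ratio of mean normalised reads Timm9 (8.01) and Tomm7 (6.08) lay above it (5.99). It is a cytosolic co-chaperone that binds HSP70 and HSP90 and sits outside the translocases. Its normalised reads were 180, 164, 25.3 and 32.2, from 310, 232, 19 and 19 reads. The log2 fold change was -2.55 (standard error 0.287, adjusted p = 6.71e-18) in the authors' deposited table. Without Tomm34 the median of the tested import genes stayed at -1.09 in the authors' deposited table, and A and B lay 2.61-fold above C and D by summed normalised reads.

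All 3 genes of the SAM complex among the 38 fell, each in the highest class of mean level, where 61.2% of all tested genes fell. Samm50, the barrel of the complex, had 105, 101, 30.7 and 23.7 normalised reads (log2 fold change -1.84, standard error 0.313, adjusted p = 2.05e-08, authors' deposited table). The metaxins Mtx1 and Mtx2, which sit on the cytosolic face of the barrel, were at 62.8, 60.1, 21.3 and 25.4 and at 61.1, 76.4, 16.0 and 16.9 normalised reads. Adjusted p was 6.83e-04 and 3.70e-06 by the authors' deposited table, and neither overlapped between the sides. In the highest class C and D lay below both A and B in 74.5% of all tested genes. A further metaxin gene, Mtx3, lies outside the 38 and was not called (0.24, adjusted p = 0.714, authors' deposited table).

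In the TIM23 complex the receptor and the motor's anchor fell, and the other tested subunits were not called. The receptor and the anchor lay in the highest class of mean level, where 61.2% of all tested genes fell. Timm17a and Timm17b lay in the next class (13.3%) and Timm21 in the class below (0.623%). Timm50, which receives precursors at the inner membrane, had 93.1, 103, 29.3 and 28.8 normalised reads (-1.69, standard error 0.311, adjusted p = 2.28e-07, authors' deposited table). Timm44, which ties the motor to the channel, had 64.0, 63.6, 18.7 and 23.7 (-1.51, standard error 0.374, adjusted p = 1.36e-04, authors' deposited table). The paralogues Timm17a and Timm17b, which line the translocation path, had nearly equal values (both -0.69, authors' deposited table) and were not called. Limma called Timm17b (-0.91, adjusted p = 0.0352) and not Timm17a (-0.80, adjusted p = 0.0513). The Timm17b call was lost with library totals (-0.36, adjusted p = 0.425) and upper-quartile factors (-0.86, adjusted p = 0.0548). It was also lost with A and B summed (-0.89) and without library B (-0.67) or C (-0.26), and kept without A (-1.14) or D (-1.43). Timm17a passed with TMM factors (-0.94, adjusted p = 0.0271) and with a minimum of 50 reads (-0.78, adjusted p = 0.0499). Timm17a was read 39, 39, 13 and 6 times and Timm17b 34, 39, 6 and 11 times. Library D was the lower of C and D for Timm17a and library C for Timm17b. Timm23, the name-giving channel protein, was listed with 1, 0, 2 and 1 reads, too few for any direction. Timm21 did not pass (-0.88, authors' deposited table) but did in limma (-1.35, adjusted p = 0.0312). That limma call was lost with library totals (-0.79, adjusted p = 0.206) and without library A (-1.25), C (-1.18) or D (-1.52). It was kept without B (-1.45). The span of Timm21 lies wholly inside that of Fbxo15. Without strand its 17, 12, 2 and 2 reads cannot be told apart from those of Fbxo15.

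The 2 exchange factors that reload the matrix HSP70 differed in value. Grpel1 had 58.2, 75.0, 22.7 and 8.46 normalised reads and fell (-1.92, standard error 0.417, adjusted p = 1.09e-05, authors' deposited table). Library D was the lower one, and limma gave -2.82 without library C and -1.49 without library D, against -2.08 with all. Grpel2, its paralogue, had 12.8, 9.90, 2.67 and 10.2 normalised reads, with the sides overlapping, and did not pass (-0.54, adjusted p = 0.387, authors' deposited table). The difference between the paralogues was not tested. Pam16, a regulator of the motor, had 0, 0, 1 and 1 reads.

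Neither tested gene of TIM22, the carrier insertase, passed. Timm29 lay in the class of mean level next to the highest, where 13.3% of all tested genes fell, and Timm22 in the class below (0.623%). Timm22 had 14.5, 14.8, 1.33 and 10.2 normalised reads, with a single read in library C (-0.98, adjusted p = 0.144, authors' deposited table). It passed in limma with all libraries (-1.71, adjusted p = 0.00564). The call was lost when C was left out (-0.45, adjusted p = 0.595), when D was left out (-2.91, adjusted p = 0.0553) and with library totals (-1.16, adjusted p = 0.0701). Timm29, a subunit of the animal complex, had 15.7, 17.7, 13.3 and 27.1 normalised reads with C below and D above the other side (0.20, authors' deposited table).

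Of the small Tim chaperones, 2 of 5 tested fell. Timm8b and Timm13 lay in the class of mean level next to the highest, where 13.3% of all tested genes fell. Timm9 and Timm10 lay in the class below (0.623%) and Timm8a2 in the lowest (0%). Timm8b had 45.4, 40.3, 14.7 and 3.38 normalised reads (-1.98, standard error 0.537, adjusted p = 3.62e-04, authors' deposited table), and library D held only 2 reads. For Timm8b limma gave -3.36 without library C and -1.50 without library D, against -2.32 with all. Timm9 had 26, 28, 2 and 1 reads (-2.35, standard error 1.02, adjusted p = 0.0132, authors' deposited table). In limma its call was lost when C was left out (-2.77, adjusted p = 0.102) and when D was left out (-2.38, 0.0524), against -2.58 with all. Timm10, the partner of Timm9 in 1 chaperone ring, had 25, 21, 5 and 3 reads. It did not pass (-0.92, adjusted p = 0.158, authors' deposited table), but did in limma (-1.18, adjusted p = 0.0352). That limma call was lost with library totals (-0.62, adjusted p = 0.268) and with a minimum of 50 reads (-1.17, adjusted p = 0.0587). It was also lost when any 1 library was left out (-1.34 to -1.03). Timm13, which pairs with Timm8 proteins, lay closer between the sides at 30.8, 29.0, 25.3 and 16.9 normalised reads (-0.41, adjusted p = 0.365, authors' deposited table). Timm8a2 had 6 reads in all.

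The peptidase, chaperonin and protease genes of the matrix among the 38, 6 in all, fell. All but Hspe1 lay in the highest class of mean level, where 61.2% of all tested genes fell. Hspe1 lay in the next class (13.3% of all genes there). Pmpca and Pmpcb, the substrate-binding and catalytic subunits of MPP, were at 106, 105, 37.3 and 28.8 and at 80.3, 78.5, 42.6 and 28.8 normalised reads. Their log2 fold changes were -1.60 (standard error 0.293, adjusted p = 2.25e-07) and -1.07 (0.301, adjusted p = 0.00107) in the authors' deposited table. Hspd1, the chaperonin, had 88.4, 76.4, 26.7 and 16.9 normalised reads (-1.81, standard error 0.353, adjusted p = 1.07e-06, authors' deposited table). Hspe1, its lid, had 42, 31, 3 and 7 reads (-1.31, standard error 0.644, adjusted p = 0.0358, authors' deposited table), and did not pass in limma without library C (adjusted p = 0.205).

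Both matrix proteases fell, and Lonp1 had the smallest change among the 19. Lonp1 had 100.1, 122, 64.0 and 55.8 normalised reads (-0.84, standard error 0.244, adjusted p = 0.00175, authors' deposited table). It did not pass in limma with library totals (-0.29, adjusted p = 0.175). Clpp, the proteolytic chamber that works with the unfoldase Clpx, had 59.3, 53.0, 20.0 and 20.3 (-1.38, adjusted p = 8.18e-04, authors' deposited table). Timmdc1 had 19.8, 19.8, 14.7 and 15.2 normalised reads and did not pass (-0.32, authors' deposited table). Leaving it out moves the median to -1.20 in the authors' deposited table.

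The makeup of the import reads does not depend on how libraries are scaled. Tomm34 took 11.1% and 10.1% of all import reads in A and B (95% Wilson intervals 10.0 to 12.4 and 8.95 to 11.4) and 4.29% and 5.57% in C and D (2.76 to 6.60 and 3.60 to 8.54). The 2 matrix proteases took 9.85% and 10.8% in A and B and 14.2% and 13.2% in C and D, with intervals that overlap between the sides for B with C and D and for A with D. TIM22 genes took 1.87% and 2.09% in A and B, 2.71% in C and 6.74% in D. The interval of D (4.54 to 9.92) lay above those of A (1.43 to 2.44) and B (1.58 to 2.77). It overlapped that of C (1.56 to 4.67). The SAM genes took 14.1% and 14.7% against 11.5% and 11.4%, with intervals that overlap between the sides.

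**Figure D4:**
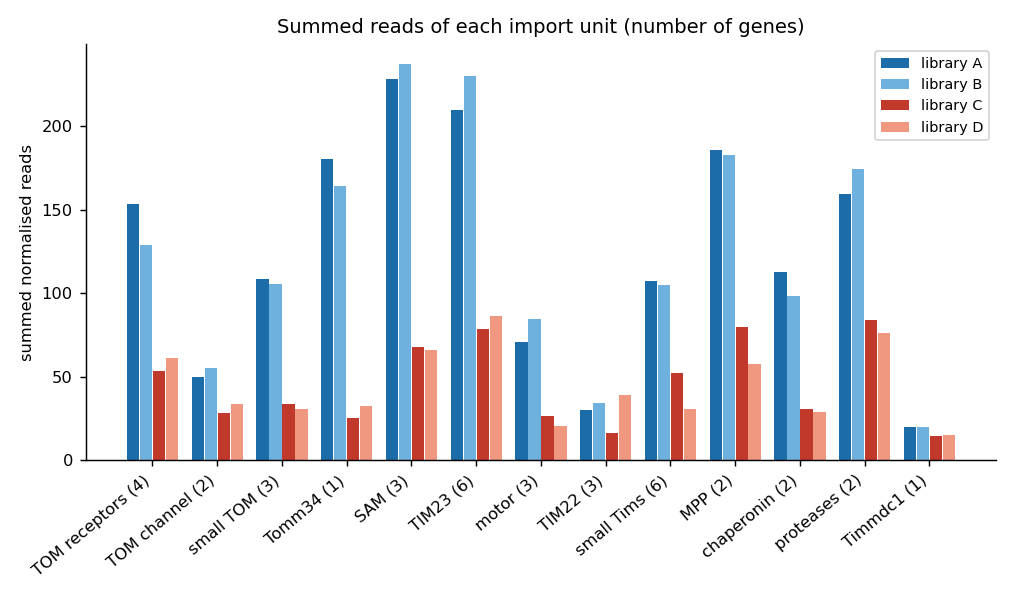
Summed normalised reads of each import unit in libraries A to D, with the number of genes in brackets. Bars of C and D stand below those of A and B in each unit except TIM22, where D (38.9) is above A (30.3) and B (33.9).

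Other genes of the pathway, listed apart from the 38, are set against the same background: 18.8% of all tested genes fell, and 61.2% in the highest class of mean level. Of 19 tested genes of other import steps, 7 fell and 0 rose, and the median was -0.69 (authors' deposited table). They included Aifm1, which binds the oxidative import receptor (-2.09), Trap1, the matrix HSP90 (-1.77), Hspa9, the motor's HSP70 (-1.05), and the outer membrane insertase Mtch2 (-1.88), all from the authors' deposited table. Mipep, a presequence peptidase (0.04), and Mtch1 (0.15) were not called (authors' deposited table). Of 9 tested genes for inner membrane proteases, prohibitins and the unfoldase Clpx, 5 fell and 0 rose (median -1.07, authors' deposited table), led by the protease Yme1l1 (-2.56), Clpx (-2.16), Phb2 (-1.37) and Afg3l2 (-0.94). Of 7 tested genes of the cristae organiser MICOS and its partners, 4 fell and 0 rose (median -1.25, authors' deposited table): Micos10 (-2.13), Micos13 (-1.71), Immt (-1.32) and Dnajc11 (-0.76). Of 8 cytosolic chaperones that guide precursors, 7 fell and 0 rose (median -1.47, authors' deposited table), with Dnaja2 (-2.29), Stip1 (-1.99), Hsp90aa1 (-2.57) and Hsp90ab1 (-1.41) at the smallest p.

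Cell type markers were read against the same shares (18.8% of all tested genes fell and 26.9% rose), which change with mean level. Of 16 tested germ cell markers 15 fell and 0 rose (median -1.96, authors' deposited table), and the list's summed normalised reads were 3586 and 3722 in A and B and 756 and 673 in C and D. Dazl and Ddx4 were among them, and Dppa3 was at 0 in A, B and D. The median mean level of the tested germ cell markers was 105, in the highest class, where 61.2% of all tested genes fell. Of 6 stromal markers 4 rose and 2 fell (summed 599 to 616 against 888 to 908), of 5 endothelial markers 2 rose and 0 fell (65.1 to 72.1 against 140 to 151), and of 5 blood and myeloid markers 2 rose and 1 fell (74.5 to 75.0 against 121 to 129), by the authors' deposited table. Of 8 Sertoli markers 1 rose and 2 fell (195 to 212 against 101 to 132), and none of 6 Leydig (25.5 to 27.9 against 49.3 to 59.2) or 4 T cell markers (6.98 to 7.78 against 25.4 to 28.0) passed in the authors' deposited table. Median mean levels of the Leydig and T cell lists were 8.06 and 3.63, in classes where 0.623% and 0% of all tested genes fell. In the same classes 1934 and 975 of 4337 genes rose. Summed over all genes, normalised reads of A and B lay 1.47-fold above those of C and D. By share of reads the Sertoli list took 0.0388% and 0.0350% in A and B and 0.0269% and 0.0352% in C and D. Genes encoded by mitochondrial DNA took 0.136% and 0.133% of the recovered reads of A and B and 1.35% and 1.28% of C and D, with mt-Cytb not among them. The part that these shifts, and the reads on odorant and vomeronasal receptor genes, have in the fall of import genes was not tested.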

How the data were processed

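Per the submitters' processing notes the build was mm10 and the tools were edgeR, DESeq2, StringTie 2.1.7, Trimmomatic 0.39 and STAR 2.7.5c. Their roles and the annotation are not stated there. Per the file headers, the table deposited by the authors holds a mean signal over libraries after division by size factors, a log2 fold change with its standard error, a p-value and an adjusted p-value. The adjusted p equals a Benjamini-Hochberg adjustment. A p computed from fold change over standard error was off by over 10% for 89.0% of tested genes, so the log2 values may be shrunken; shrinkage and direction are not stated. An unnamed row (0.00475% of the summed means) was left out.

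Each mean is a sum of whole reads times 4 fixed steps. Of 20515 rows with reads 20512 had 1 solution (99.985%, relative tolerance 8e-15), and the other 3 were left out. On simulated data 100% of 19863 genes were recovered. The design planned levels per coding length, but no coding lengths were given, so levels are not compared between genes. Limma 3.58.1 (voom, R 4.3.3) was run on recovered reads of genes with at least 10 reads as an alternative, called "limma" in the text: 14470 genes with the authors' size factors, of which 28.8% were lower and 40.9% higher. It was also run on simulated reads in which far fewer genes changed than were called here, so that run cannot show its error rate on these data. All members are named by the rule, with the genes of smallest p from other lists. Members and lists were chosen with earlier results of these data known. Of the 38 symbols 36 matched the RefSeq gene table. Grpel1 and Grpel2 did not, so their overlaps with other genes were not analysed here; Grpel1 has a promoter window.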

Additional observations from a re-analysis of the deposited data

How the results depend on the processing

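Counted in either direction, 17 import genes (adjusted p under 0.01 in the authors' deposited table) to 27 (limma without a filter, 3 of them higher) passed, against 19, and 15 of these 19 fell in all 12 limma settings. With limma the median log2 fold change of the import genes was -1.37 with the authors' size factors, -1.50 with TMM, -0.82 with library totals, -1.32 with upper-quartile and -1.37 with median-ratio factors, -1.23 without a filter, -1.54 with a minimum of 50 reads, and -1.37 with libraries A and B summed. Leaving out a library gave -1.49 to -1.30. Library totals shifted all genes by 0.55, and relative to all genes fitted the import genes lay at -1.73 with both scalings, at -2.73 without a filter and at -0.83 with 50 reads. Without mitochondrially encoded genes and the 50 most abundant genes the import genes took 0.318% of library A, 0.313% of B, 0.166% of C and 0.162% of D. Values that changed sign belong to genes that did not pass: Timm13 (0.090) and Timmdc1 (0.19) with library totals, and, without library D, Tomm20 (0.54; -2.28 without C) and Timm29 (-0.27; 0.73 without C). The causes were not tested. Over all genes, limma with the authors' size factors called 4168 lower and 5912 higher, against 2742 and 7270 with library totals, 4141 and 11261 without a filter and 4013 and 1547 with 50 reads. No paired analysis was possible because the recovered libraries carry no replicate number. Depth leaves 5 genes with at most 4 reads undetermined.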
